A study of Rattus norvegicus with 39 samples.

Results

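The comparison set the 10 sperm libraries of the highest dose of ethylene glycol monomethyl ether (EGME), 75 mg/kg/d (EGME75), against the 9 libraries of the next lower dose, 60 mg/kg/d (EGME60). The members were chosen by the group prefix of the sample titles and made up 19 of the 39 libraries of the series. All animals were wild-type male Fischer rats, 11 to 12 weeks old when sperm was obtained. They were gavaged daily for 5 days with EGME in water and then left unexposed for 5 weeks. Each library held total RNA from cauda epididymal sperm of a single male. The 10 libraries at 0 mg/kg/d (EGME0, water alone) and the 10 at 50 mg/kg/d (EGME50) entered no test of the step and served only for context and for the test between neighbouring steps. Sense-strand reads had been counted in 4 tables. They list 405 miRNAs, 402 tRNA genes, 1563 noncoding transcripts of Ensembl (below, the ncRNA table) and 78572 entries of RNAcentral, a collection of noncoding RNA sequences.

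EGME is a glycol ether solvent whose metabolite methoxyacetic acid is known for killing spermatocytes. Mature sperm carry little long RNA but many small RNAs, among them fragments cut from the 5′ ends of tRNAs, rRNA fragments, miRNAs and piRNAs. tRNAs carry amino acids to the ribosome. Each is named for its amino acid and its anticodon, the base triplet that reads the codon. miRNAs guide Argonaute proteins to target transcripts through their seed, bases 2 to 8. The miR-34b, miR-34c and miR-449 family is typical of meiotic and later male germ cells.

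Mature sequences are shown for the germ cell family, which gives the sample its identity, and for the other miRNAs with the smallest p-values of the step, with the seed in capitals (RefSeq, GRCr8).
miR-34b-3p: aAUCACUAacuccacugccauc
miR-34c-3p: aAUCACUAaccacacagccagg
miR-34b-5p: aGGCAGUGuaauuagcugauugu
miR-34c-5p: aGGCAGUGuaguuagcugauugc
miR-449a-5p: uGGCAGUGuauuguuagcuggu
miR-204-5p: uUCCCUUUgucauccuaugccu
miR-191a-5p: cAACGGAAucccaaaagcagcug
miR-125b-5p: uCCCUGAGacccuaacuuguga
The 3p arms of miR-34b and miR-34c share the seed AUCACUA, and their 5p arms share GGCAGUG with miR-449a-5p. The 3p arms lie on the minus strand at chr8:60306621-60306642 (miR-34b-3p) and chr8:60306101-60306122 (miR-34c-3p). miR-204-5p lies on the plus strand at chr1:229743493-229743514.

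The libraries held 244869 to 24308152 counts over the 4 tables, with EGME75 replicate 24 the shallowest and EGME60 replicate 38 the deepest. The miRNA table was small, with 139 to 37020 counts per library. Each of the 13 chips carried 3 libraries, and only 4 chips (3, 4, 6 and 12) held a library of both doses. Within-chip values therefore rest on 4 pairs, whose smallest possible sign-flip p is 0.125. EGME60 replicate 6 stood apart in most tables: its median profile correlation with the other EGME60 libraries was 0.559 for miRNAs and 0.914 for anticodons, the lowest of its group. The lowest EGME75 libraries were replicate 24 for miRNAs (0.449) and replicate 7 for anticodons (0.935). Between the doses, the median correlation of profiles was 0.958 for anticodons and 0.697 for miRNAs, against 0.961 and 0.698 within EGME60 and 0.978 and 0.656 within EGME75. The labelled cell type was checked against the germ cell miRNAs: they summed to 10.9% to 28.1% of miRNA counts at EGME60 (median 15.3%) and 6.47% to 22.1% at EGME75 (median 13.3%). Their medians at EGME0 and EGME50 were higher, at 26.3% and 21.5%.

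The share of counts in each table did not differ past the threshold between the doses. The miRNA table held a mean of 0.118% ± 0.0907% (SD, n = 9) of all counts at EGME60 and 0.0554% ± 0.0522% (n = 10) at EGME75. In 9 of 10 EGME75 libraries the miRNA share lay below the EGME60 median, and the exact two-sided permutation test gave p = 0.0804 (adjusted p = 0.154 over 5 values). Within chips, the mean difference was only -0.00977 percentage points, against -0.0625 over all libraries, and 3 of the 4 pairs differed upwards. The tRNA table held 56.6% ± 11.1% and 56.2% ± 8.81% of counts (exact permutation, adjusted p = 0.938, n = 9 and 10). The ncRNA table held 6.90% ± 5.68% and 3.76% ± 1.74% (exact permutation, adjusted p = 0.154, n = 9 and 10). The RNAcentral table held 36.4% ± 12.2% and 39.95% ± 9.72% (exact permutation, adjusted p = 0.614, n = 9 and 10). Its difference was 3.56 points over all libraries and -7.15 within chips, and that of the tRNA table was -0.36 and 9.64. Depth was lower by 0.335 in log10 counts at EGME75 (exact permutation p = 0.0615, adjusted p = 0.154, n = 9 and 10). With single libraries left out, this difference ran from -0.390 to -0.185. EGME75 replicate 24 lay at 5.39, and the others of its group at 6.40 to 7.23. In shares of bulk RNA, fewer cells of a type and less RNA per cell cannot be told apart, and depth measures neither.

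**Figure D1:**
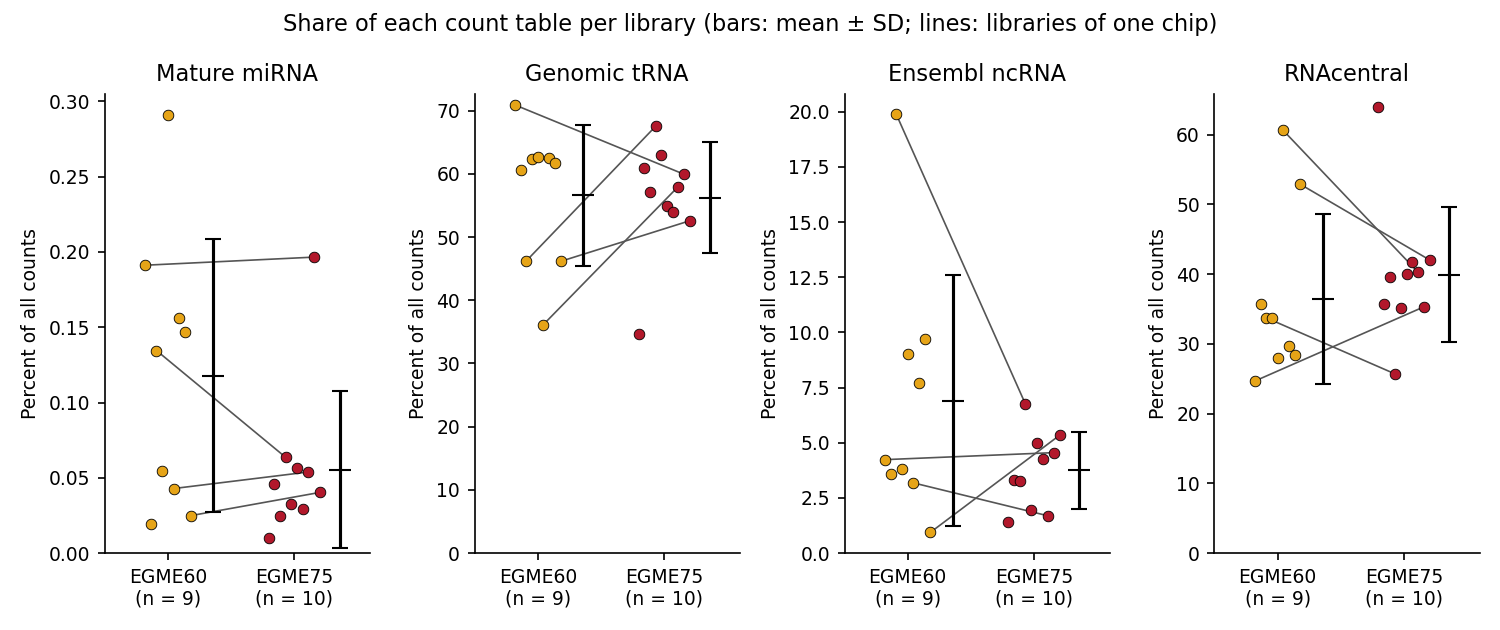
Percent of all counts (vertical axes) in each of the 4 tables, 1 point per library, with mean ± SD and lines joining libraries of the same chip. The doses overlap in all 4 panels, and EGME75 replicate 39 has the highest miRNA share of its group at 0.197%.

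The step was measured most precisely in the tRNAs. tRNA genes were summed into anticodons, of which 46 passed the count filter, and 8 of these changed (17.4% of those tested): 6 fell (13%) and 2 rose (4.35%). The tRNAs for selenocysteine, asparagine, isoleucine (anticodon AAT), leucine (CAA) and serine (AGA and TGA) fell, and those for threonine (AGT) and valine (AAC) rose. The median change over all 46 was -0.05 on the log2 scale, under a scaling that itself sets most changes near 0. With library totals alone the median was 0.11. Fold changes are log2 values of EGME75 against EGME60 from edgeR's quasi-likelihood test after trimmed-mean (TMM) scaling, with a threshold of 0.05 on the Benjamini-Hochberg adjusted p. For no anticodon did the doses separate without overlap.

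Selenocysteine tRNA, SeC(e)TCA, decodes UGA codons in selenoproteins, one of which is a major structural protein of the sperm midpiece. It made up 2.43%, 3.85% and 4.48% of tRNA counts in the lowest, median and highest EGME60 library. At EGME75 these values were 1.51%, 2.66% and 3.14%. All 10 EGME75 libraries lay below the EGME60 median, although the groups overlapped. The log2 fold change was -0.68 (SE 0.21, edgeR adjusted p = 0.0353). The medians of EGME0 and EGME50 were both 2.71%, with ranges of 1.78% to 4.63% and 1.55% to 4.40% that overlapped both doses. The mean difference within chips was -0.58 in log2 percent, with the same sign in 3 of 4 chips.

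All 4 serine anticodons were below 0, and 2 of them passed the test. SerTGA ran from 0.856% over a median of 1.31% to 1.69% of tRNA counts at EGME60 and from 0.389% over 0.908% to 1.11% at EGME75. Its log2 fold change was -0.74 (SE 0.23, edgeR adjusted p = 0.0353), and all 10 EGME75 libraries lay below the EGME60 median. SerAGA had 1.25%, 1.4% and 2.54% at EGME60 and 0.422%, 1.19% and 1.58% at EGME75 (log2 fold change -0.74, SE 0.24, edgeR adjusted p = 0.0353). These serine tRNAs were also lower at EGME60 than at EGME50 and EGME0, where the medians were 1.80% and 1.86% for SerTGA and 2.52% and 2.63% for SerAGA. SerGCT was the third most abundant anticodon. It had 6.01%, 16.7% and 21.9% at EGME60 and 2.69%, 9.67% and 15.6% at EGME75, against a median of 25.6% at EGME0. Although all 10 EGME75 libraries again lay below the EGME60 median, SerGCT missed the threshold (log2 fold change -0.74, SE 0.29, edgeR adjusted p = 0.0674). The EGME60 libraries were widely spread, with 6.01% in replicate 22 and 7.22% in replicate 38, both lower than most EGME75 libraries. Within chips the mean difference of SerGCT was -0.07 in log2 percent, with 2 of 4 chips on each side. SerTGA also had its sign in only 2 of 4 chips (mean -0.37), and SerAGA in 3 of 4 (mean -0.40). SerCGA gave -0.51 (SE 0.22, edgeR adjusted p = 0.0795).

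Among the other anticodons that fell, IleAAT had the lowest log2 fold change, -0.91 (SE 0.27, edgeR adjusted p = 0.0353). It made up 0.653%, 1.01% and 1.51% of tRNA counts at EGME60 and 0.239%, 0.714% and 0.965% at EGME75. All 10 EGME75 libraries lay below the EGME60 median, and the medians of EGME0 and EGME50 were higher than both, at 1.47% and 1.35%. AsnGTT had 1.69%, 2.29% and 4.14% at EGME60 and 1.03%, 1.91% and 2.34% at EGME75 (log2 fold change -0.75, SE 0.25, edgeR adjusted p = 0.0353). Its highest EGME60 value came from replicate 6. LeuCAA had 0.407%, 0.426% and 1.10% at EGME60 and 0.0975%, 0.370% and 0.527% at EGME75 (log2 fold change -0.80, SE 0.27, edgeR adjusted p = 0.0419). The high LeuCAA value was that of EGME60 replicate 30, and the lowest EGME75 value was that of replicate 7. Within chips, LeuCAA was lower in 4 of 4, and IleAAT and AsnGTT in 3 of 4.

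ThrAGT rose the most, by 1.22 on the log2 scale (SE 0.34, edgeR adjusted p = 0.0353), but from a very low level. It made up 0.0046%, 0.0189% and 0.0483% of tRNA counts at EGME60 and 0.0186%, 0.0440% and 0.155% at EGME75, against a median of 0.0080% at EGME0. In 9 of 10 EGME75 libraries it lay above the EGME60 median, and the highest value was that of replicate 7. ValAAC had 0.610%, 1.5% and 2.55% at EGME60 and 1.47%, 2.40% and 4.0% at EGME75 (log2 fold change 0.52, SE 0.17, edgeR adjusted p = 0.0353). Its medians at EGME0 and EGME50 were 0.975% and 1.12%. Both anticodons were higher at EGME75 in 4 of 4 chips, with mean differences of 1.28 and 0.64 in log2 percent.

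**Figure D2:**
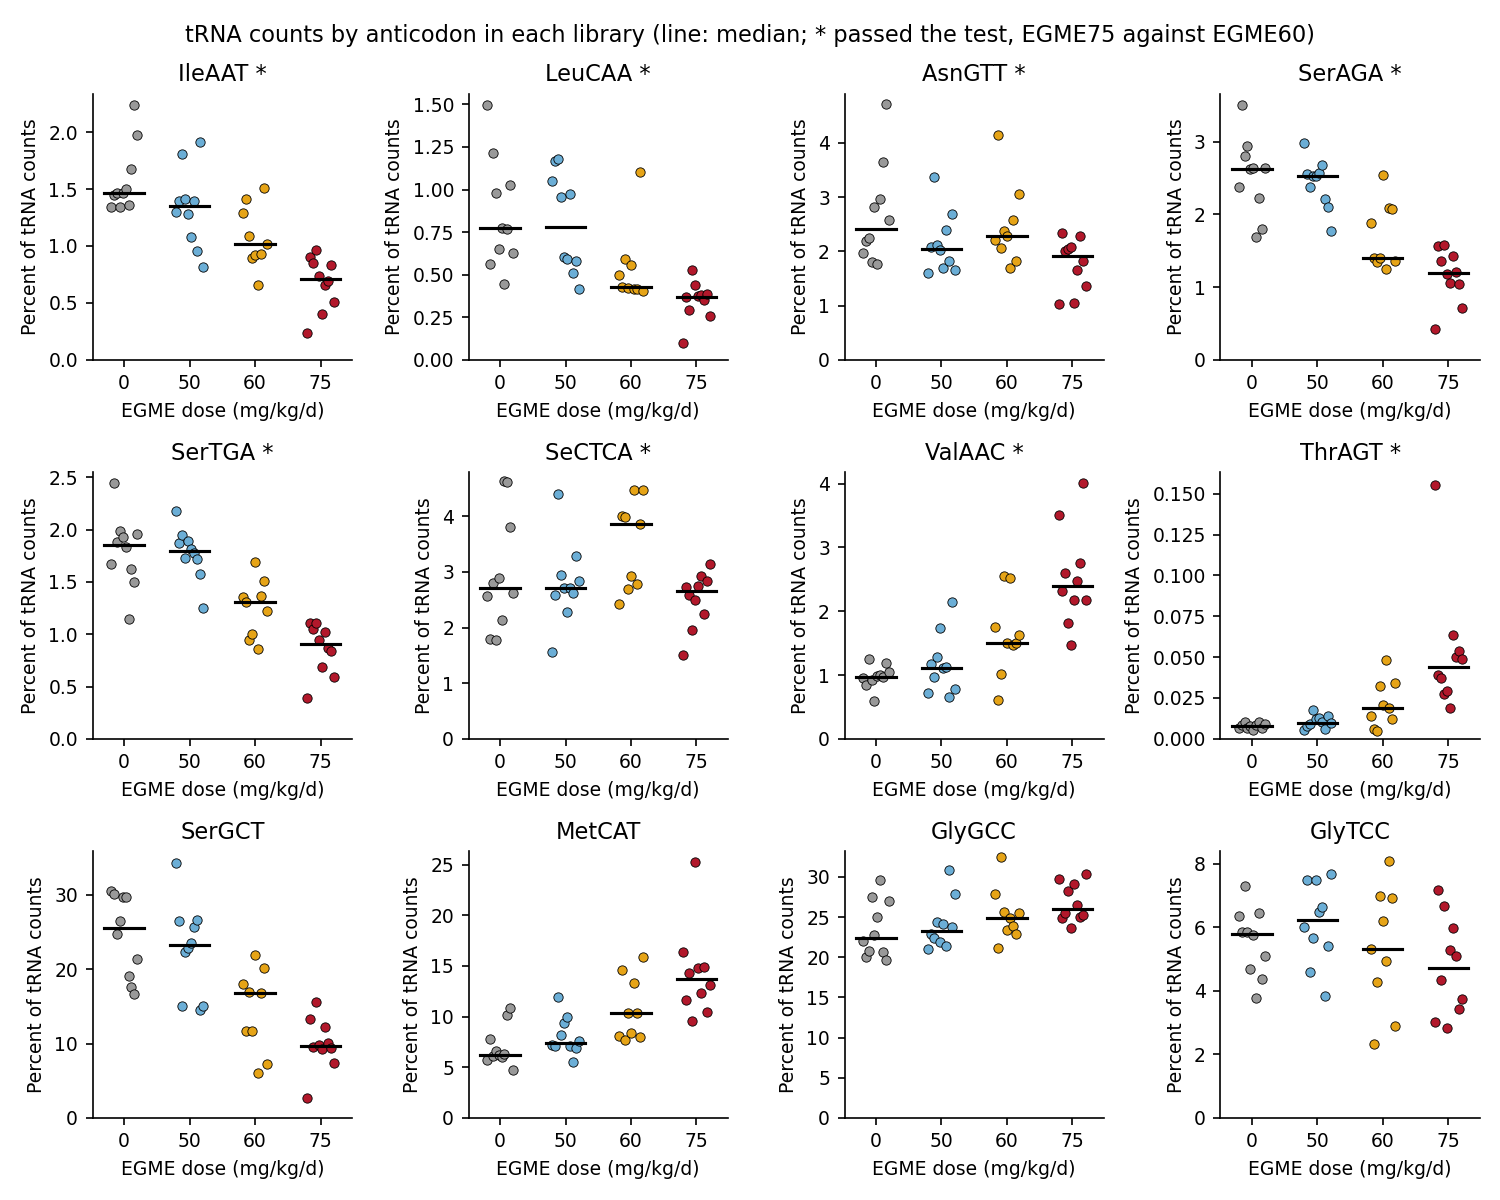
Percent of tRNA counts (vertical axes, each from 0) per library at the 4 doses in mg/kg/d (horizontal axes) for the 8 anticodons that passed the test (asterisk) and 4 abundant ones. IleAAT, SerTGA and the selenocysteine tRNA (SeCTCA) have all 10 EGME75 libraries below the EGME60 median.

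For the tRNAs best known for 5′ fragments in mammalian sperm, none of 6 anticodons passed the test, 5 were above 0 and 1 below, and their median was 0.35 against -0.05 over all 46. Together they made up 27.3%, 35% and 39.3% of tRNA counts at EGME60 and 32.5%, 37.0% and 43.1% at EGME75. GlyGCC, the most abundant anticodon, ran from 21.1% over 24.9% to 32.5% at EGME60 and from 23.6% over 26% to 30.4% at EGME75 (log2 fold change -0.10, SE 0.17, edgeR adjusted p = 0.655). Percents are not TMM-scaled: the mean log2 percent of GlyGCC was 0.09 higher at EGME75, opposite in sign to the fold change. GlyCCC gave 0.18 (SE 0.16) and ValCAC 0.11 (SE 0.15). LysCTT had 0.550%, 0.570% and 2.09% at EGME60 and 0.587%, 1.35% and 2.45% at EGME75. All 10 EGME75 libraries exceeded the EGME60 median, yet the estimate was 0.52 with an SE of 0.26 (edgeR adjusted p = 0.153), and the within-chip mean was 0.05 with 2 of 4 chips upwards. GluCTC gave 0.65 (SE 0.28, edgeR adjusted p = 0.0797) and HisGTG 0.52 (SE 0.19, edgeR adjusted p = 0.0609), HisGTG with a higher value at EGME75 in 4 of 4 chips. In the fit over all 39 libraries HisGTG did pass, at 0.63 (SE 0.18, edgeR adjusted p = 0.0137). MetCAT, which holds the initiator tRNA, had 7.66%, 10.3% and 15.9% at EGME60 and 9.60%, 13.7% and 25.3% at EGME75 (log2 fold change 0.24, SE 0.25, edgeR adjusted p = 0.530). LeuAAG gave -0.35 (SE 0.33), although its mean log2 percent was 0.05 higher at EGME75, and GlyTCC gave -0.30 (SE 0.22).

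**Figure D3:**
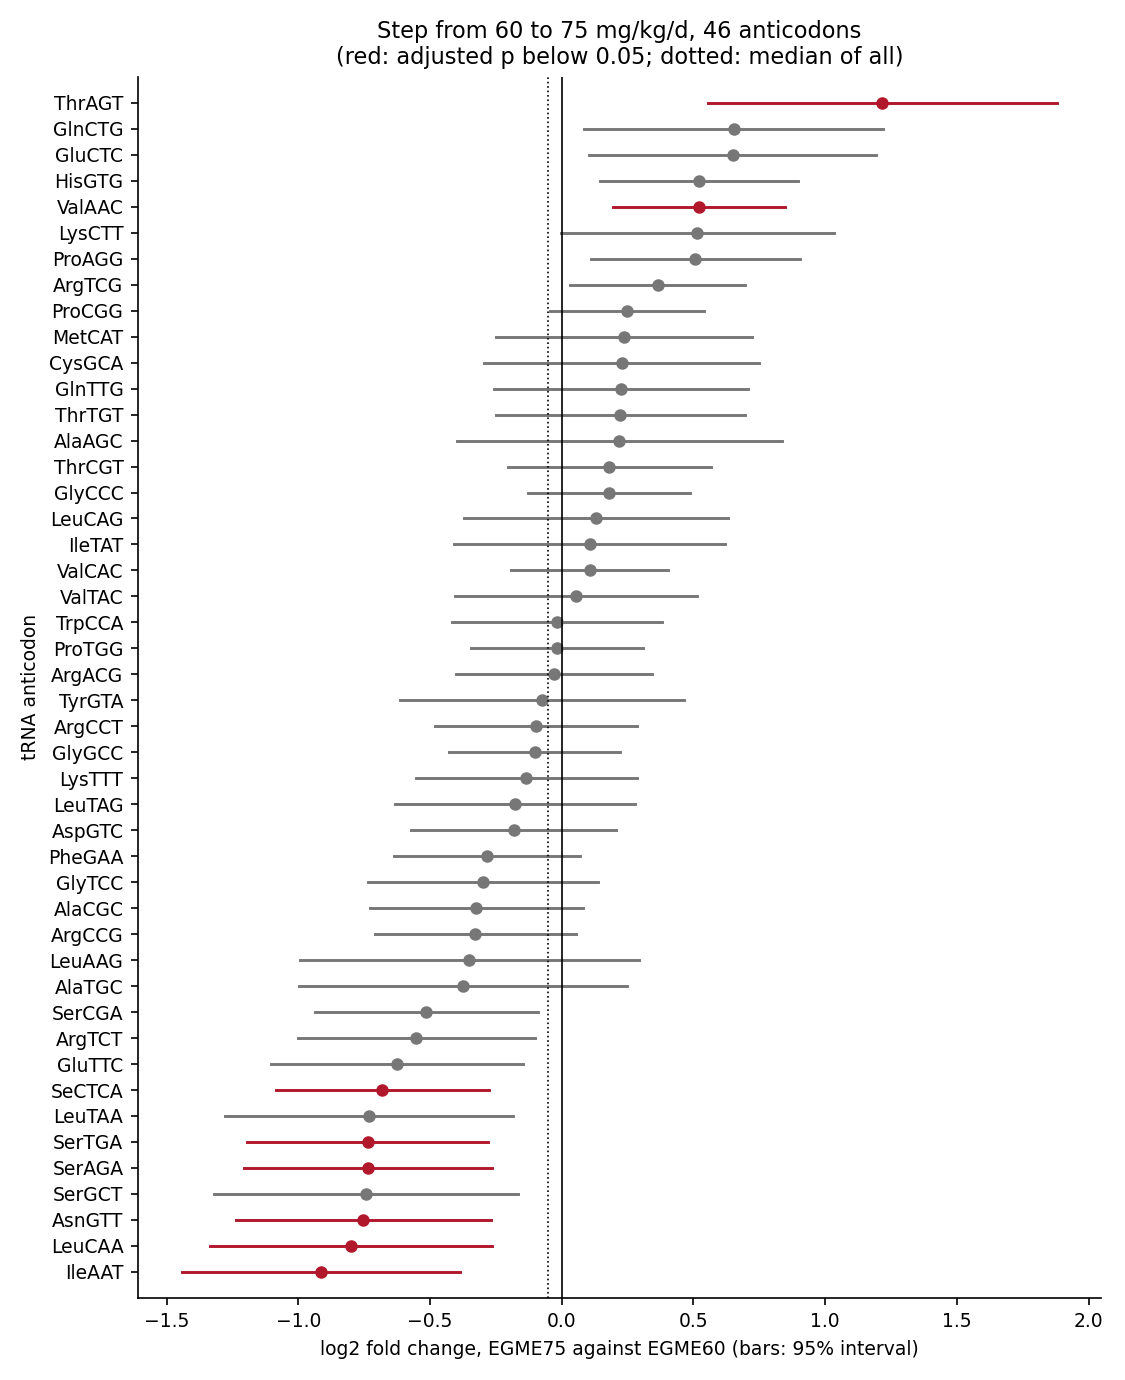
log2 fold change of EGME75 against EGME60 with its 95% interval (horizontal axis) for the 46 anticodons tested (vertical axis). The red intervals are 6 below 0 and 2 above it. Some grey intervals also exclude 0, among them that of the abundant SerGCT (-1.32 to -0.17), while those of GlyGCC and MetCAT cross 0.

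These calls lay close to the threshold, and their number changed with most choices. Each of the 8 kept its sign in all 30 alternative fits, but these reuse the same libraries and are no independent check. By chip, the sign held in 2 of 4 pairs for SerTGA and in 4 of 4 for ThrAGT, ValAAC and LeuCAA. With library totals in place of TMM, with chip in the model in any of 3 ways, or without EGME60 replicate 6 and EGME75 replicate 24 together, 0 anticodons were called. DESeq2 called 16, of which 6 were higher and 10 lower. The fit over all 39 libraries called 14, of which 7 were higher and 7 lower, in place of 2 and 6. Leaving out EGME60 replicate 6, 13, 21, 29 or 30, or EGME75 replicate 7, 15, 32, 39 or 40, also left 0 calls, whereas leaving out EGME60 replicate 14 or 22 gave 14 and 16 and leaving out EGME75 replicate 31 gave 5. An exact permutation test of log2 percent, added after the data were seen, gave adjusted p-values no lower than 0.0562 (n = 9 and 10).

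At the level of single tRNA genes, 57 of 335 changed (17%): 39 fell (11.6%) and 18 rose (5.37%). Many genes of a family carried identical counts, so the 57 held 37 distinct count patterns. None of the 335 passed with chip as a fixed term over all 39 libraries, within the 4 shared chips, with log10 depth as a covariate or with library totals alone. The genes that changed belonged to the same amino acids as the anticodons, with a few more. The anticodon counts are sums of these genes, so this overlap is no separate evidence. Of 22 serine genes, 9 fell, and 21 of 22 were below 0. Of 14 asparagine genes 10 fell (4 distinct patterns), and of 10 IleAAT genes 9 fell (4 patterns). All 3 LeuCAA genes fell, as did 4 of 6 ArgTCT genes and the single SeC(e)TCA gene. Of 15 threonine genes 8 rose (6 patterns), 6 of them ThrAGT and 2 ThrCGT, and all 15 were above 0. Of 14 cysteine genes 5 rose (2 patterns), although CysGCA as a whole gave 0.23 (SE 0.27). Of 14 valine genes 4 rose, all ValAAC with the same counts. None of the glycine, alanine, proline, methionine, glutamine or histidine genes passed. Even so, all 14 glutamine genes (9 patterns, median 0.65) were above 0, as were all 12 histidine genes, which shared the same counts. Under relative log expression (RLE) scaling those 12 histidine genes did pass, and the calls were 48, split 30 higher and 18 lower in place of 18 and 39. The medians of the serine, asparagine, isoleucine, threonine, valine and histidine genes kept their sign under both other scalings.

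Chromosome 17, which carried 82 of the tested tRNA genes, held 20 of the 57 (24.4% of its genes), and chromosome 10 held 16 of 60 (26.7%). All 6 genes with the largest changes in either direction were on chromosome 17, in Rnor_6.0 as the table names it. trna1627-ThrAGT rose by 1.87 (SE 0.49), trna3822-ThrCGT by 1.34 (SE 0.39) and trna3878-ThrAGT by 1.31 (SE 0.36). trna3849-SerAGA fell by 1.11 (SE 0.32), trna1619-IleAAT by 1.03 (SE 0.35) and trna1654-IleAAT by 1.003 (SE 0.28). The edgeR adjusted p was 0.0478 for each of the 6. Of these, 3 rested on few reads. trna1627-ThrAGT had 0 to 23 counts per EGME60 library and 0 to 92 per EGME75 library, trna3822-ThrCGT 7 to 90 and 0 to 210, and trna1619-IleAAT 30 to 95 and 0 to 82. trna1654-IleAAT had 2337 to 10734 counts per EGME60 library and 37 to 5538 per EGME75 library. Without EGME60 replicate 5, 6, 13, 21, 29 or 30, or EGME75 replicate 7, 15, 24, 31, 32, 39 or 40, 0 tRNA genes were called, and without EGME60 replicate 38 there were 37.

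No miRNA passed the threshold: 0 of 64 tested (0%), with 5 at an unadjusted p under 0.05, and DESeq2 also called 0. The median SE was 0.44, which leaves all but large changes undetectable at this depth. Of the 64, 27 were above 0 and 37 below, with a median of -0.07. The 2 smallest p-values belonged to miR-34c-3p and miR-204-5p, followed by miR-34b-3p. miR-34c-3p made up 0.326%, 1.25% and 3.67% of miRNA counts at EGME60 and 0%, 0.914% and 2.01% at EGME75 (log2 fold change -1.17, SE 0.43, edgeR adjusted p = 0.436). The library at 0 was EGME75 replicate 24, where a count of 0 allows up to 2.16%, for counting error only. miR-34b-3p had 3.65%, 7.21% and 17.1% at EGME60 and 3.46%, 6.37% and 7.82% at EGME75, against a median of 13% at EGME0 (log2 fold change -0.89, SE 0.37, edgeR adjusted p = 0.436). The 5p arms lay nearer 0. That of miR-34c gave -0.14 (SE 0.33), that of miR-34b 0.29 (SE 0.41), and miR-449a-5p 0.01 (SE 0.35). The difference between arms was not tested. The sixth germ cell miRNA, miR-449c-5p, was not tested, with at most 5 counts in a library. miR-34b-3p and miR-34c-3p kept their sign in all 30 alternative fits, miR-34b-5p and miR-34c-5p in 27 each, and miR-449a-5p in 15.

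miR-204-5p had 0.0496%, 0.208% and 0.464% at EGME60 and 0%, 0.101% and 0.278% at EGME75 (log2 fold change -1.34, SE 0.56, edgeR adjusted p = 0.436). It was at 0 in 4 EGME75 libraries, whose miRNA totals ran from 139 to 4267 counts. miR-191a-5p showed how a single library can carry an estimate. It made up 40.3% of the miRNA counts of EGME60 replicate 6 and 5.26% to 9.11% in the other EGME60 libraries. At EGME75 it had 3.45%, 6.85% and 18.1%, and its log2 fold change of -1.03 (SE 0.47, edgeR adjusted p = 0.478) became -0.19 without that library. miR-125b-5p had 0.352%, 2.10% and 3.07% at EGME60 and 1.25%, 2.87% and 10.1% at EGME75 (log2 fold change 0.71, SE 0.33, edgeR adjusted p = 0.478). The lowest was again EGME60 replicate 6, and the highest EGME75 replicate 24. The abundant miR-16-5p gave -0.08 (SE 0.33).

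The miRNA lists are given by counts and medians only. Of 26 X-linked testis miRNAs 5 were tested, 1 above and 4 below 0, with a median of -0.33. miR-741-3p, the most counted of them, gave -0.33 (SE 0.34). Of 20 members of the miR-17 to 92 clusters, which are linked to cell proliferation, 6 were tested and 5 lay below 0 (median -0.42). miR-19b-3p gave -0.57 (SE 0.37) and miR-93-5p -0.73 (SE 0.51). The let-7 family, which restrains growth genes, had 4 of 6 tested members above 0 (median 0.09). The testis toxicity list had 2 of 6 members tested, with a median of -0.09. Markers of other cells were followed too. The 3 tested members of the epithelial miR-200 family were all above 0 (median 0.53), with miR-429 at 0.84 (SE 0.50) and miR-200b-3p at 0.53 (SE 0.44). All 5 family members summed to 0.251%, 1.42% and 3.01% of miRNA counts at EGME60 and 1.81%, 2.49% and 4.77% at EGME75, against a median of 0.872% at EGME0. Blood cell miRNAs summed to 0.0216%, 0.837% and 2.17% and to 0.248%, 0.788% and 4.82%, and 2 of 3 tested were above 0. Their medians at EGME0 and EGME50 were 0.114% and 0.289%. Muscle miRNAs summed to 1.31%, 3.63% and 11.7% and to 1.12%, 3.70% and 9.80%, against medians of 1.67% at EGME0 and 2.33% at EGME50. Only 3 of the 6 muscle miRNAs were detected in any of the 19 libraries, and the 1 tested, miR-145-5p, gave -0.32 (SE 0.37). The part of such cells in the tRNA changes was not tested.

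**Figure D4:**
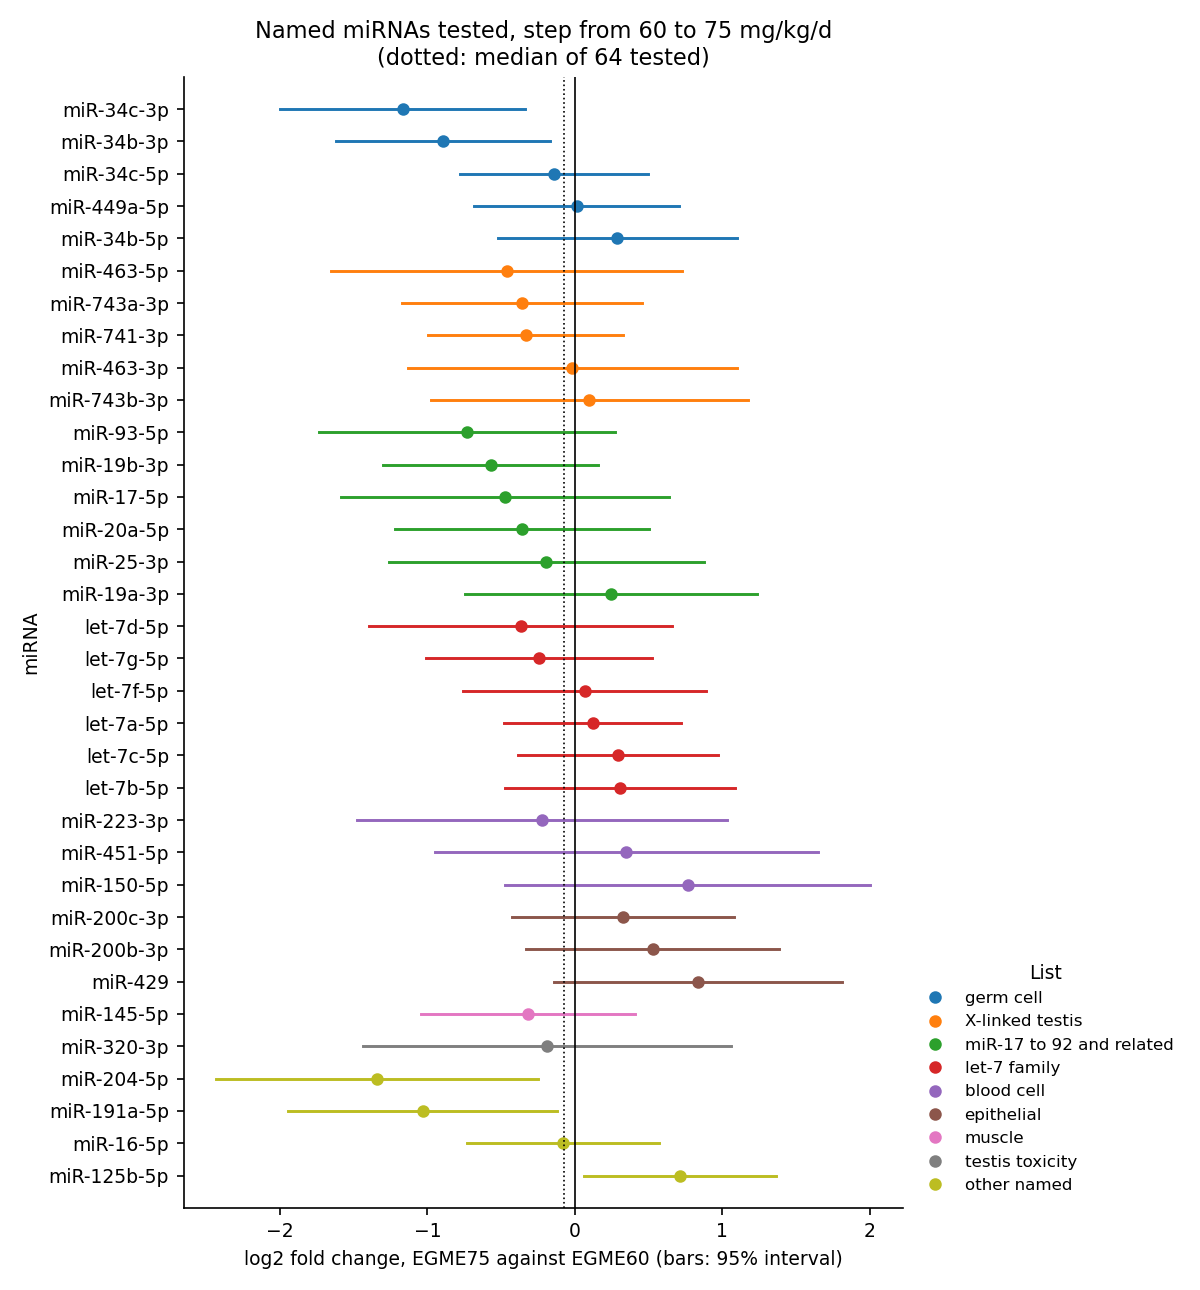
log2 fold change of EGME75 against EGME60 with its 95% interval (horizontal axis) for the named miRNAs tested (vertical axis), coloured by list. Apart from 5 miRNAs, among them miR-34c-3p at -1.17 and miR-204-5p at -1.34, all intervals cross 0, and none passed after adjustment.

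In the RNAcentral table, 0 of 1388 tested entries passed (0%), with 162 at an unadjusted p under 0.05, while DESeq2 called 76. Shares of whole RNA classes were compared next. Entries annotated as rRNA, the RNA of ribosomes, held 32.6%, 50.7% and 80.2% of this table's counts at EGME60 and 48.4%, 73.9% and 90.7% at EGME75. Entries annotated as tRNA held 8.72%, 35.6% and 58.1% at EGME60 and 2.53%, 14.6% and 38.9% at EGME75. In 9 of 10 EGME75 libraries the rRNA share lay above the EGME60 median and the tRNA share below it. The mean differences were 16.9 percentage points for rRNA (exact permutation p = 0.0166, n = 9 and 10) and -16.0 for tRNA (exact permutation p = 0.0178, n = 9 and 10). Adjusted over 8 classes, both had p = 0.0712 and missed the threshold. EGME60 replicates 22 and 38 had rRNA shares of 78.8% and 80.2%, above 9 of the 10 EGME75 libraries, and EGME75 replicate 16 had the lowest share of its group. Without EGME60 replicate 38 the adjusted p was 0.0216 for both classes (exact permutation, n = 8 and 10). Within chips the difference was not repeated: the rRNA share was higher at EGME75 on chip 12 by 23.9 points and lower on chips 6, 3 and 4 by 3.97, 3.17 and 2.54 points, a mean of 3.55. The tRNA share was lower on chips 12 and 6 and higher on chips 3 and 4, a mean of -3.19. The other RNAcentral classes, lncRNA, piRNA and other RNA, differed by 0.707, -0.922 and -0.578 points, each with an adjusted exact permutation p of 0.495 (n = 9 and 10).

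**Figure D5:**
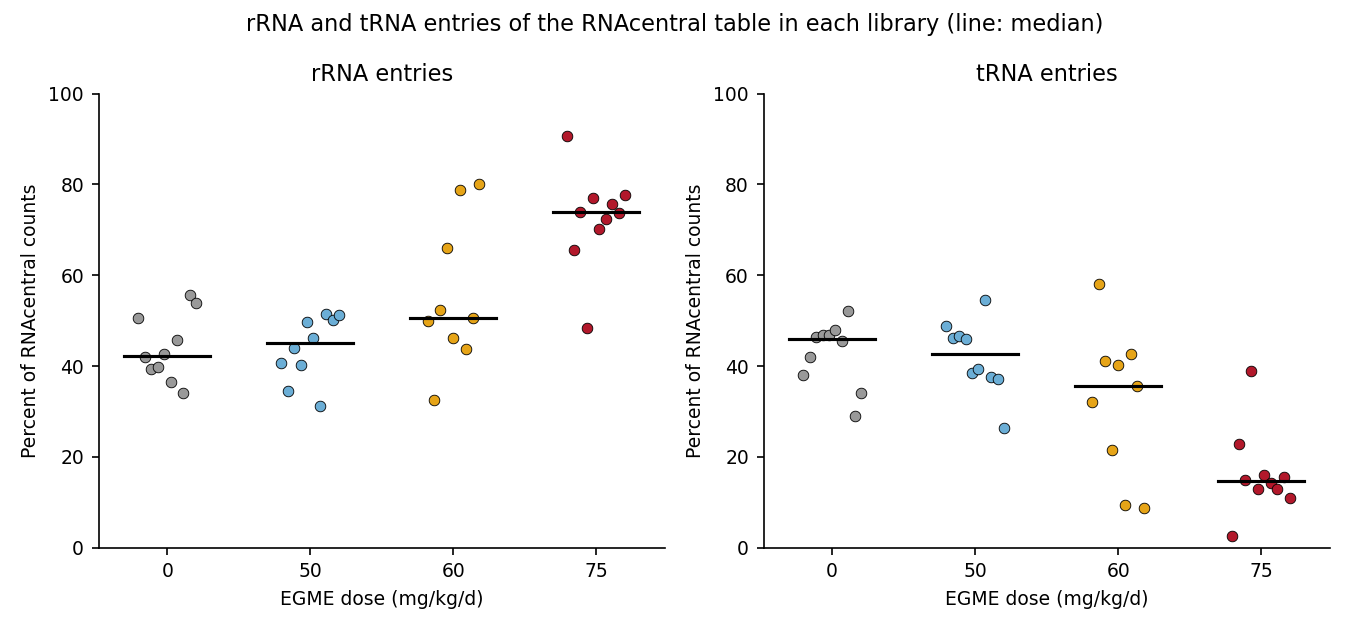
Percent of RNAcentral counts in rRNA entries (left) and tRNA entries (right) per library at the 4 doses in mg/kg/d, with medians as lines. EGME75 lies mostly between 65.5% and 90.7% rRNA, and EGME60 spreads from 32.6% to 80.2%.

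By entry, 155 of the 164 tRNA entries tested in RNAcentral were below 0 (median -0.82), as were all 18 signal recognition particle RNAs (median -0.98) and all 11 small nucleolar RNAs (median -1.37), which guide rRNA modification. Those 11 include 5 at an unadjusted p under 0.05. The median over all 1388 was -0.28, and TMM, RLE and total scaling gave -0.28, -0.49 and -0.34. With library totals alone, the median of signal recognition particle RNAs was -0.45, close to the -0.34 of all entries. That of tRNA entries was -0.82 and that of small nucleolar RNAs -1.73. Of 402 piRNAs, the germline RNAs that silence transposons, 276 were below 0 (median -0.56). rRNA entries had 163 of 241 above 0 (median 0.26), yet 40 of those at an unadjusted p under 0.05 were lower and 4 higher. Small nuclear RNAs, parts of the spliceosome, had 16 of 20 entries above 0 (median 0.23).

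In the ncRNA table, 0 of 128 transcripts passed (0%). The smallest edgeR adjusted p was 0.0501, and 38 had an unadjusted p under 0.05. DESeq2 called 3, and the fit with all 39 libraries called 29, of which 26 were lower. All 31 small nuclear RNAs of this table were below 0 (median -0.47), unlike most of those in RNAcentral. Of 26 transcripts of the miscellaneous class, 22 were below 0 (median -1.40). Nuclear rRNAs had 25 of 36 members above 0 (median 0.29) and lincRNAs 14 of 18 (median 0.73). Both mitochondrial rRNAs were below 0, at -2.20 (SE 0.79) and -2.02 (SE 0.74), each with an adjusted edgeR p of 0.115. These signs depended on scaling: with library totals alone the median of all transcripts moved from -0.15 to 0.29, that of small nuclear RNAs to 0.45 and that of the mitochondrial rRNAs to 0.01. Mitochondrial rRNA held a mean of 93.6% ± 8.10% (SD, n = 9) of the table at EGME60 and 93.7% ± 5.16% (n = 10) at EGME75, so the TMM factors rested on the remainder and ran from 0.0507 to 5.93.

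A last question was whether the step of 15 mg/kg/d from 60 to 75 differed from the step of 10 mg/kg/d from 50 to 60. Both steps use the EGME60 libraries, so their estimates are not independent. In the fit over all 39 libraries, the difference of the steps passed for 0 of 105 miRNAs, 0 of 338 tRNA genes and 0 of 47 anticodons (0% of each), with 6, 35 and 3 at an unadjusted p under 0.05 (no other tool was run). SeC(e)TCA had the smallest p among anticodons: its steps were 0.27 (SE 0.20) from 50 to 60 and -0.56 (SE 0.20) from 60 to 75, a difference of -0.82 (SE 0.34, edgeR adjusted p = 0.507). All 4 serine tRNAs had negative estimates for both steps. From 50 to 60 and from 60 to 75, SerTGA gave -0.60 and -0.61, SerAGA -0.62 and -0.62, SerGCT -0.76 and -0.62, and SerCGA -0.65 and -0.37. ThrAGT gave 0.87 (SE 0.29) and 1.26 (SE 0.30). Among tRNA genes the smallest p belonged to chr15.trna2138-GluTTC, with 0.45 (SE 0.21) and then -0.69 (SE 0.21), a difference of -1.14 (SE 0.36, edgeR adjusted p = 0.139), and chr9.trna5628-GluTTC carried the same counts. Among miRNAs it was miR-202-5p, with a difference of -4.12 (SE 1.51, edgeR adjusted p = 0.682), where a single EGME60 library held 422 of the group's 504 counts. Among ncRNA transcripts, 2 of 174 differed between the steps (1.15%), as did 3 of 2757 RNAcentral entries (0.109%). At an unadjusted p under 0.05 there were 24 and 377. Taken alone, the step from 50 to 60 passed for 424 of 2757 RNAcentral entries (420 higher) and the step from 60 to 75 for 0 in the same fit. Elsewhere the later step had as many calls or more. The calls of the earlier and the later step were 0 and 96 for tRNA genes and 6 and 14 for anticodons. They were 21 and 29 for ncRNA transcripts and 0 and 0 for miRNAs. The 5 features whose steps differed had a positive estimate for the step to 60 and a negative one for the step to 75. ENSRNOT00000077967, a processed transcript, had the smallest p of its table (difference -6.59, SE 1.35, edgeR adjusted p = 0.00195). A single EGME60 library held 627 of its 905 EGME60 counts. URS0000CCE916 had a difference of -7.98 (SE 1.5, edgeR adjusted p = 0.00801), with 1198 of its 1552 EGME60 counts in 1 library. With chip in the model, 0 entries differed in either table.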

How the data were processed

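Small RNA from sperm was sequenced with 10 ng of total RNA per library (mirVana extraction with DNase, Ion total RNA-seq kit), per the labels. The 4 tables deposited by the authors hold raw counts of sense reads, not normalized. The submitters' processing notes name FastQC, Bowtie and DESeq2. Their roles, the counting program and the handling of reads that fit several features are not given in the sources used here. A read may be counted in more than 1 table, and 28, 158, 593 and 26128 rows of the miRNA, tRNA, ncRNA and RNAcentral tables repeat the counts of another row, so such rows cannot be told apart.

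The 9 EGME60 and 10 EGME75 libraries were fitted alone with edgeR 4.0.16 (R 4.3.3; TMM, filterByExpr by group, robust quasi-likelihood, two-sided, Benjamini-Hochberg within each table, threshold 0.05). Counts of tRNA genes were added up by anticodon (49 in all), without 2 rows whose anticodon is unknown. Shares were compared by exact two-sided permutation of group means (92378 arrangements, smallest p = 1.08e-05, scipy 1.17.1). Profile correlations are medians of Pearson's r over log2 CPM of the tested features between pairs of libraries, given as descriptions. The scripts were checked on simulated data. Alternatives used RLE, library totals, no filter, DESeq2 1.42.0, limma-voom 3.58.1, chip terms, depth, distinct count patterns and single libraries left out.

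The groups, lists and tests were chosen with earlier results of these data known. Features were named by rule: in the tRNA data, up to 6 anticodons and 3 genes per direction among those called whose mean reached 10 counts per library; the 5 most abundant miRNAs and anticodons; list members; and the 5 miRNAs with the smallest p. Other serine, cysteine and arginine names were added after their values were seen. Of 405 miRNAs, 372 matched a RefSeq mature sequence (56 of 64 tested). The replicates are separate males.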

Additional observations from a re-analysis of the deposited data

Results flagged for a closer look

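Among the sets of 9 or 10 values examined, 34 (23.9%) had a library whose gap to the nearest other exceeded Dixon's limit. Chance gives about 1 in 20 for independent, normally distributed values. Most sets here are percents, some on few reads, and some are nested, such as ThrAGT and its genes. The flagged share therefore does not measure an excess of outliers. EGME75 replicate 7 had 11 of these and EGME75 replicate 24, the shallowest, had 8.

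EGME75 replicate 7 had 34.6% of its counts in the tRNA table (others 52.6% to 67.5%) and 63.9% in RNAcentral. Its mitochondrial rRNA share of the ncRNA table was 81.1% and its lincRNA share 6.37%. It was high in miR-19a-3p (2.01%), miR-223-3p (1.51%) and miR-451-5p (2.61% of miRNA counts). ThrAGT made up 0.155% of its tRNA counts, with chr17.trna1627-ThrAGT at 0.00261%, chr17.trna3822-ThrCGT at 0.00596% and chr17.trna3878-ThrAGT at 0.0793%. EGME75 replicate 24 had a depth of 5.39 in log10 counts. On 139 miRNA counts, where 3 counts make up 2.16%, it was flagged for miR-463-5p (2.88%), miR-25-3p (1.44%), miR-150-5p, miR-429 and miR-320-3p (2.16% each). These values rest on very few reads and cannot be told from counting error. It was also flagged for let-7a-5p (8.63%) and let-7b-5p (9.35%). EGME75 replicate 23 was high in miR-191a-5p (18.1%), miR-93-5p (1.73%) and MetCAT (25.3%), and EGME75 replicate 39 in its miRNA share (0.197%).

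Among the EGME60 libraries, replicate 6 was high in miR-191a-5p (40.3%), replicate 21 in miR-16-5p (12.7%), replicate 5 in miR-34b-5p (1.97%) and replicate 13 in its ncRNA share (19.9%). Replicate 22 was high in lincRNA (5.65%), let-7b-5p (2.46%) and let-7c-5p (5.83%), replicate 38 in miscellaneous RNA (17.4%) and miR-743a-3p (2.71%), and replicate 30 in LeuCAA (1.10%) and chr17.trna1619-IleAAT (0.00150%).

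The 2 dose steps differed by the test of their difference for ENSRNOT00000077967 (-6.59 on the log2 scale), ENSRNOT00000089775 (-6.44), URS0000CCE916 (-7.98), and URS00009A0726 and URS0000A81DB6 (-4.96 each, with the same counts).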

How the results depend on the processing

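Pairing by replicate number was not possible because no number occurred in both groups. The only pairing was by chip, with 4 pairs. The 57 calls among tRNA genes became 0 with library totals alone, with chip fixed over 39 libraries, within the 4 shared chips, with log10 depth as a covariate, or without EGME60 replicate 6 and EGME75 replicate 24 together. They became 26 without a filter, 96 with DESeq2, 96 with all 39 libraries, 27 with limma-voom and chip as a random block, and 28 over distinct count patterns. Library totals moved the median log2 fold change of tRNA genes from -0.03 to 0.12. The 8 anticodon calls became 0 with library totals, chip fixed, chip random, shared chips, the 2 libraries left out, and the exact permutation of log2 percent, 2 with the depth covariate, 16 with DESeq2 and 14 with all 39 libraries. The 0 miRNA calls became 1 with the depth covariate (miR-191a-5p). The 0 ncRNA calls became 3 with DESeq2, 29 with all 39 libraries and 2 within shared chips. The 0 RNAcentral calls became 5 without a filter and 76 with DESeq2. Step differences became 0 (RLE), 47 (totals) and 0 (chip) in the ncRNA table and 0 (totals, chip) in RNAcentral. The cause was not tested. Leaving out each of 19 libraries gave 0 to 83 tRNA genes, 0 to 16 anticodons, 0 to 5 ncRNA transcripts, and 0 miRNAs and RNAcentral entries. It gave 14 to 19.95 points for the rRNA share of RNAcentral and -18.9 to -12.7 for the tRNA share, both past the threshold in 3 of 19 fits (without EGME60 replicate 22 or 38, or EGME75 replicate 16). Signs in the alternatives were followed only for the features named by rule, and none of those called changed sign.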
